A study of Mus musculus with 28 samples.

Results

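The 38 Hox genes described here are homeobox genes of the clusters Hoxa, Hoxb, Hoxc and Hoxd. They were taken by symbol from 20660 genes that could be named on the array, and 41 of the 27235 named probes belonged to them. Each gene was read from 1 probe, chosen for its mean level on the 28 arrays, the highest among the gene's probes. The method, Transcriptome Tomography, sections a whole frozen brain along 1 axis, pools neighbouring sections as a fraction and hybridises the RNA of each fraction to 1 microarray. A series of fractions was made from each of 3 male C57BL/6J mice aged 3 weeks, with no treatment or genetic change named in the labels. Mouse 1 gave 12 coronal fractions, mouse 2 gave 6 horizontal fractions and mouse 3 gave 10 sagittal fractions. A fraction is a slab of whole brain with many cell types, so fewer cells of a type and less RNA per cell cannot be told apart. With 1 mouse per plane and 1 array per position, no position is replicated, and differences of plane and of mouse cannot be told apart. All p-values rest on the spread among the fractions of 1 brain. Levels are log2 of the processed array signal after subtraction of the array's own 75th percentile, so 0 is the 75th percentile. Well above background refers to the flag that the scanner software sets for a spot, and a gene with that flag is also called seen.

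Between 24822 and 34240 of 55681 probes were well above background per array, and no spot was saturated. The arrays lay on 4 slides, here called A (coronal 1 and 2 with all horizontal fractions), B (coronal 3 to 10), C (coronal 11 and 12 with sagittal 5 to 10) and D (sagittal 1 to 4). Regional markers set the direction of each series. By the mean of their levels, each relative to the gene's own mean, the 8 cerebellum markers were highest in coronal fraction 3, the 5 olfactory bulb markers in coronal fraction 12, the 6 cerebral cortex markers in horizontal fraction 1, and the 6 hypothalamus markers in horizontal fraction 6 and sagittal fraction 5. Coronal fraction 1 is therefore called the caudal end, horizontal fraction 1 the dorsal end, and sagittal fractions 5 and 6 the midline. Sagittal fraction 9 and horizontal fraction 6 held 2095 and 1631 probes that were well above background there and on at most 2 other arrays, sagittal 4, sagittal 3 and horizontal 1 held 1465, 913 and 754 of them, and the other arrays 185 to 604.

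Hox genes encode transcription factors with a DNA-binding homeodomain, and they assign position along the body axis of the embryo. Within each cluster the genes lie in the order of their paralogue number, and genes with low numbers are switched on further forward than genes with high numbers, a relation called collinearity. In the nervous system the forward borders of paralogues 1 to 4 lie within the hindbrain, those of paralogues 5 to 8 lie from the lower medulla into the cervical and thoracic spinal cord, and paralogues 9 to 13 belong to the thoracic and lumbosacral cord, the limbs and the urogenital tract. The forebrain and midbrain develop without Hox expression. Expression is retained by many hindbrain and cord neurons after birth.

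The upstream sequences of 4 members are printed because their transcripts differ most plainly in where they were seen: Hoxa3 and Hoxb4 (through several caudal fractions), Hoxb8 (coronal fractions 1 and 2 alone) and Hoxd13 (on no array). Each is the 250 bases before the annotated start in RefSeq's table for GRCm38.p6, 5′ to 3′ on the gene's strand, with matches to 4 motifs in capitals.
Hoxa3, chr6:52213068-52213317, minus strand: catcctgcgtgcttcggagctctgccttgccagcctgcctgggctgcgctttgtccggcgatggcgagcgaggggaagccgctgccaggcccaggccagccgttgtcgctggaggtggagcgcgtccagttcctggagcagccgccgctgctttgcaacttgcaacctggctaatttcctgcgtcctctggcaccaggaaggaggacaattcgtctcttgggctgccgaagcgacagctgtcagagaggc
Hoxb4, chr11:96318017-96318266, plus strand: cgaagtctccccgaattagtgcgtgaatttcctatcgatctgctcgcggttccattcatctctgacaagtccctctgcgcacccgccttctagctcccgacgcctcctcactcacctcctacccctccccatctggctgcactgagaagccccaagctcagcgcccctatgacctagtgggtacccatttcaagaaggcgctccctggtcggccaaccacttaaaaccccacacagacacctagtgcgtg
Hoxb8, chr11:96281655-96281904, plus strand: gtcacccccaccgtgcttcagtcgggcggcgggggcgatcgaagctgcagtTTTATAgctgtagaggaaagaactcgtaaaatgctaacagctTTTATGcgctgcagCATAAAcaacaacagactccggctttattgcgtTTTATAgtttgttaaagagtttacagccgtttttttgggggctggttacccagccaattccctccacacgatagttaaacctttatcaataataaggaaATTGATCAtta
Hoxd13, chr2:74667975-74668224, plus strand: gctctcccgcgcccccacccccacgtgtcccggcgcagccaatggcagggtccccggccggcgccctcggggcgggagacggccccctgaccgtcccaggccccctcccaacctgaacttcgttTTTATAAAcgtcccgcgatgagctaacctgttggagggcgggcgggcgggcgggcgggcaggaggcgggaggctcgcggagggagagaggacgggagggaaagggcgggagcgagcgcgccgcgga
The motifs were searched on both strands with overlaps allowed. One was the core promoter box TATAAA. Another, TGATNNAT, is a letter pattern bound by Hox proteins with their Pbx partners. The homeodomain core was searched as TAATTA. The last, TTTATG, is bound by Cdx proteins, which act on Hox genes in the embryo. The table held a start for 22 of the 38 members. TATAAA occurred in 3 of the 22 (Hoxb8, Hoxd13 and Hoxd4) and in 12.4% of 32851 promoters of the same length. TGATNNAT occurred in 3 (Hoxa2, Hoxb1 and Hoxb8) and in 7.68% of all, TAATTA in 1 (Hoxd11) and in 4.84%, and TTTATG in 5 (Hoxa7, Hoxb8, Hoxd11, Hoxd3 and Hoxd4) and in 10.8%. The printed Hoxb8 stretch holds 5 matches, the Hoxd13 stretch 2 overlapping ones, and the Hoxa3 and Hoxb4 stretches none of these letters. A match is a description of the sequence and was not tied to any level below.

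Hox transcripts were found in the caudal, ventral and medial brain, and mainly from paralogues 1 to 8. At least 1 fraction was well above background for 25 of the 38 genes in the coronal series, for 20 in the horizontal series and for 24 in the sagittal series, where 67.9%, 65.9% and 72.7% of all probes were. Of the 22 genes with paralogue numbers 1 to 8, Hoxb1 and Hoxc8 were on no array well above background. Hoxb1 gives identity to rhombomere 4 of the embryonic hindbrain, and Hoxc8 acts in brachial and thoracic cord. Of the 16 genes with numbers 9 to 13, 9 were on no array well above background, namely Hoxa10, Hoxa11, Hoxa13, Hoxb13, Hoxc9, Hoxd9, Hoxd10, Hoxd12 and Hoxd13. Another probe of Hoxa13 was well above background on 1 horizontal array, so these 9 are counted by the probe read here. In all, 27 of the 38 genes were seen somewhere, where 80.3% of all probes were, and 19 of them in every series, where 58.2% were.

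**Figure D1:**
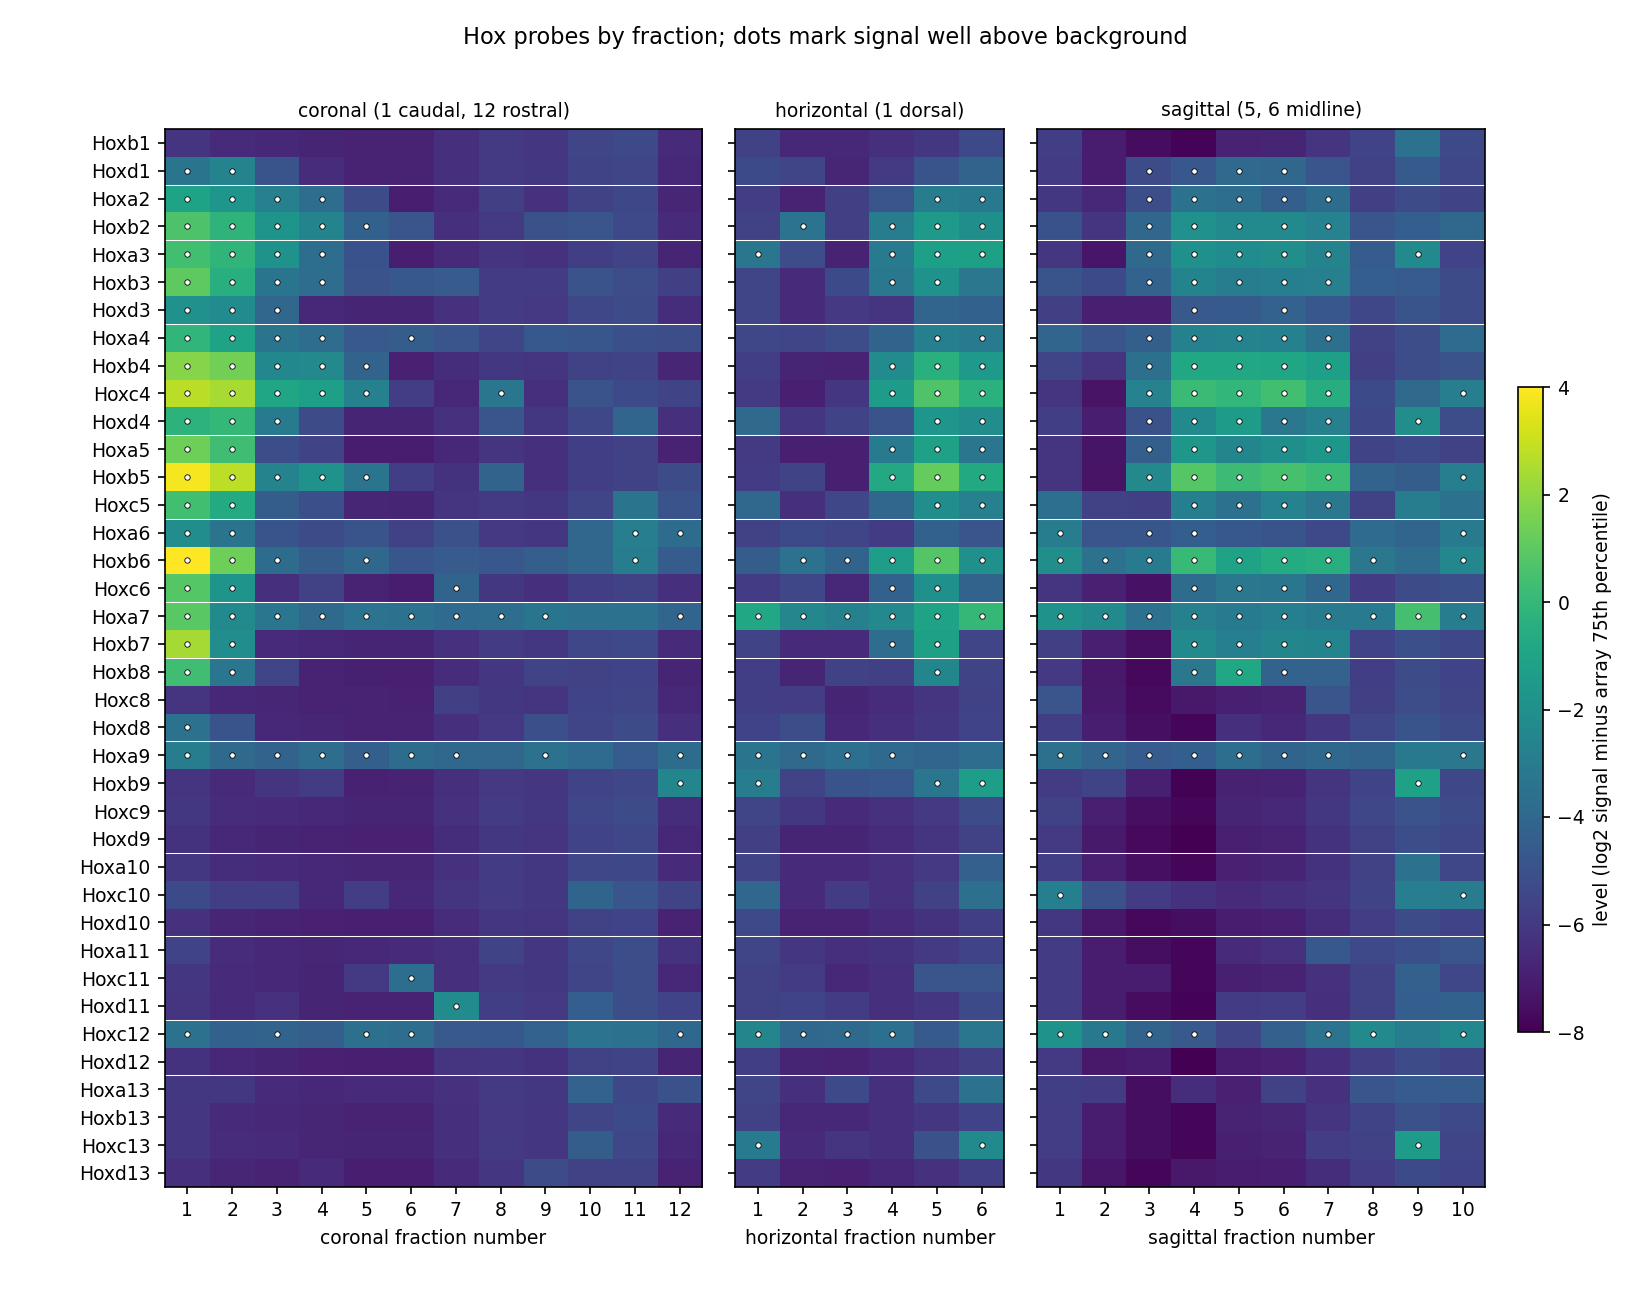
Level of the probe of each of the 38 Hox genes (rows, ordered by paralogue number and then cluster) in each fraction (columns) of the 3 series. Colour gives log2 signal minus the array's 75th percentile, and a dot marks signal well above background. The bright blocks lie in coronal fractions 1 to 5, horizontal 4 to 6 and sagittal 3 to 7, in the rows of paralogues 1 to 8.

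By fraction, the number of Hox genes well above background was 22 in coronal fraction 1, 20 in fraction 2, 14 in fraction 3, 10 in fraction 4, 8 in fraction 5 and 5 in fraction 6. It was between 0 and 5 in fractions 7 to 12, with 0 in fraction 10 and 5 in fraction 12. The share of all probes well above background stayed between 44.6% and 54.5% over the same 12 arrays. In the horizontal series the numbers were 6, 5, 4, 13, 17 and 14 in fractions 1 to 6. In the sagittal series they were 6, 4, 16, 21, 18, 19, 17, 3, 5 and 8 in fractions 1 to 10. The share of all probes was 52.1% to 55.5% over the horizontal arrays and 46.7% to 61.5% over the sagittal arrays, with 59.8% and 61.5% in sagittal fractions 3 and 4 and 47.3% in fraction 8. The Hox steps lay between horizontal fractions 3 and 4, between sagittal fractions 2 and 3, and between sagittal fractions 7 and 8.

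**Figure D2:**
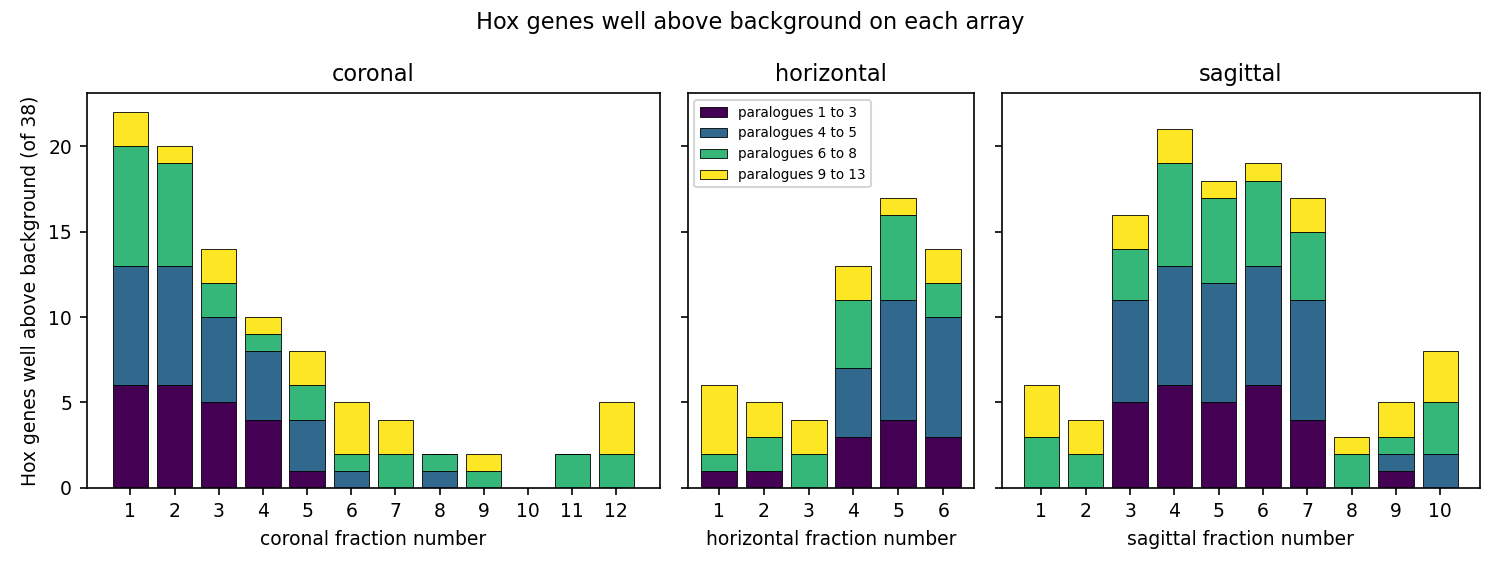
Number of the 38 Hox genes whose probe was well above background on each array, stacked by paralogue class. The bars fall from 22 in coronal fraction 1 to 0 in fraction 10, peak at 17 in horizontal fraction 5, and stand between 16 and 21 in sagittal fractions 3 to 7.

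The genes of paralogues 1 to 3 pattern the hindbrain segments, and all 7 but Hoxb1 were seen in the coronal series. Hoxa2 was -1.05, -1.69, -2.79 and -3.71 in coronal fractions 1 to 4, and lay between -6.99 and -5.20 in the others. Hoxa2 sets the identity of a pharyngeal arch and of anterior rhombomeres, and it is the Hox gene with the furthest forward border. Hoxb2 was 0.63, -0.22, -1.78, -2.57 and -4.27 in coronal fractions 1 to 5, and lay between -6.57 and -4.85 in the others. Hoxa3 was 0.39, -0.16, -1.83 and -3.69 in coronal fractions 1 to 4, and lay between -7.01 and -4.98 in the others. Hoxa3, whose loss removes thymus and parathyroid, was thus lower in each fraction from 1 to 4, as were Hoxa2 and Hoxb2. Hoxb3 was 1.01, -0.49, -3.32 and -3.69 in coronal fractions 1 to 4, and lay between -5.92 and -4.55 in the others. Hoxd3 was -1.92, -2.21 and -4.05 in coronal fractions 1 to 3, and lay between -6.75 and -5.23 in the others. Hoxd1 was -3.38 and -2.62 in coronal fractions 1 and 2, and lay between -6.83 and -4.89 in the others. Hoxd1, which is known in pain-sensing neurons, was thus seen in fractions 1 and 2 alone, and it was higher in fraction 2 than in fraction 1. Another Hoxb3 probe was well above background in 4 coronal fractions as well, with -0.87, -1.28 and -3.18 in fractions 1 to 3, and its flag differed from that of the first on 4 of the 28 arrays.

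All 7 genes of paralogues 4 and 5 were well above background in every series. Hoxa4 was -0.09, -1.04, -3.41, -3.70 and -4.45 in coronal fractions 1 to 4 and 6, and lay between -5.51 and -4.63 in the others. Hoxb4 was 1.80, 1.46, -2.39, -2.34 and -4.17 in coronal fractions 1 to 5, and lay between -6.90 and -5.54 in the others. Hoxc4 was 2.76, 2.43, -0.89, -1.21, -2.73 and -3.29 in coronal fractions 1 to 5 and 8, and lay between -6.63 and -4.93 in the others. The genes of paralogue 4 have their forward border in the lower hindbrain, and Hoxb4 is also used to expand blood stem cells. Hoxd4 was -0.25, 0.01 and -3.08 in coronal fractions 1 to 3, and lay between -6.74 and -4.08 in the others. Hoxb4, Hoxc4 and Hoxd4 stood nearly level in fractions 1 and 2 and were much lower in fraction 3, whereas Hoxa4 was already lower in fraction 2. Hoxa5 was 1.37 and 0.33 in coronal fractions 1 and 2, and lay between -7.07 and -5.11 in the others. Hoxb5 was 3.82, 2.79, -2.63, -1.86 and -3.39 in coronal fractions 1 to 5, and lay between -6.36 and -4.17 in the others. Hoxc5 was 0.36 and -0.67 in coronal fractions 1 and 2, and lay between -6.76 and -3.37 in the others. Hoxa5, needed for the breathing circuit and the lung, and Hoxc5, active in cervical cord with the phrenic motor neurons, were seen in fraction 2 and not in fraction 3. Hoxb5, which acts in the enteric and vagal lineages, ran on into fractions 3 to 5 at much lower values, with fraction 4 above both neighbours.

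**Figure D3:**
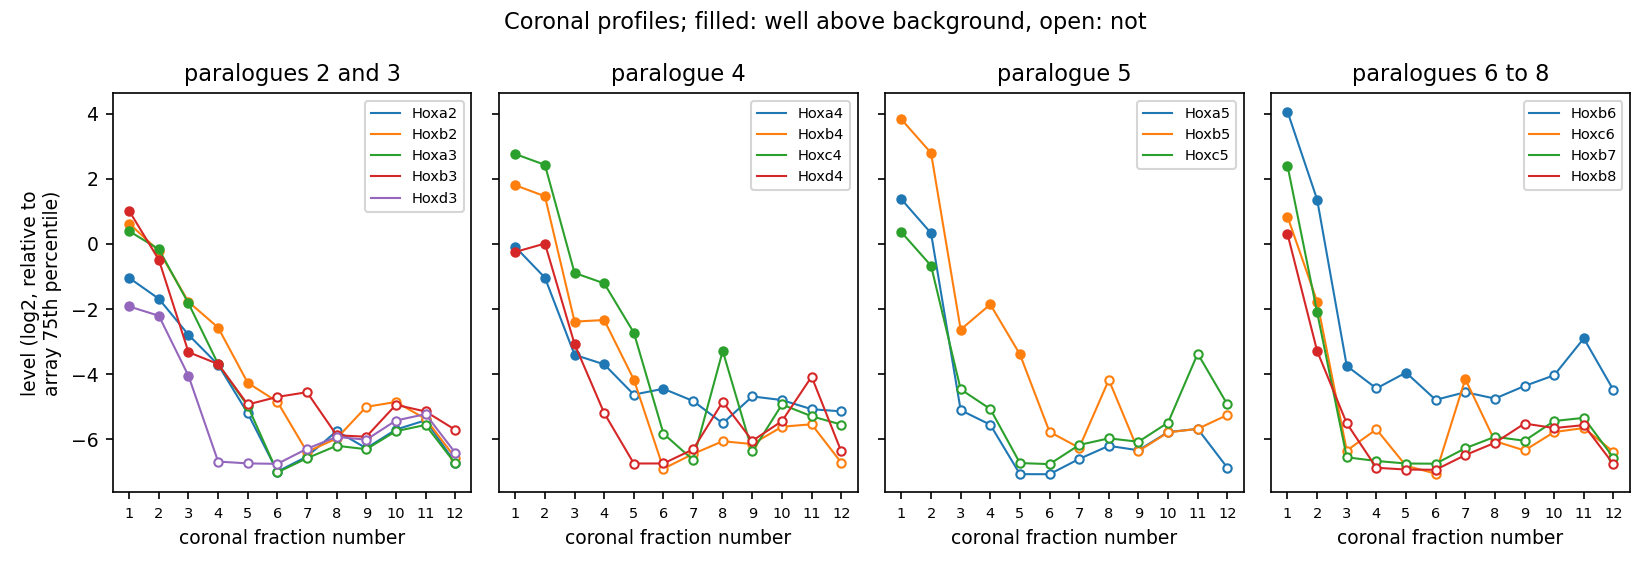
Level (log2, relative to the array's 75th percentile) of 16 Hox genes along the 12 coronal fractions, from caudal (1) to rostral (12), in panels by paralogue number. Filled points are well above background and open points are not. Paralogues 2 to 4 decline over fractions 1 to 5, and paralogues 6 to 8 fall within fractions 1 to 3.

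Of the 8 genes of paralogues 6 to 8, all but Hoxc8 were seen in coronal fraction 1. Hoxb6 was 4.06, 1.36, -3.75, -3.95 and -2.90 in coronal fractions 1 to 3, 5 and 11, and lay between -4.79 and -4.03 in the others. Hoxc6 was 0.84, -1.77 and -4.15 in coronal fractions 1, 2 and 7, and lay between -7.05 and -5.65 in the others. Hoxa6 was -2.10, -3.39, -2.86 and -3.74 in coronal fractions 1, 2, 11 and 12, and lay between -6.12 and -4.02 in the others. Hoxc6 marks brachial motor columns of the cord, and its values and those of Hoxb6 were lower in each step from fraction 1 to fraction 3. Hoxb7 was 2.40 and -2.10 in coronal fractions 1 and 2, and lay between -6.75 and -5.34 in the others. Hoxb8 was 0.31 and -3.29 in coronal fractions 1 and 2, and lay between -6.94 and -5.51 in the others. Hoxb8 is known from the compulsive grooming of its mutants and from a lineage of microglia. Both were seen in fractions 1 and 2 only. Hoxa7 was 0.93, -2.26, -3.27, -3.84, -3.41, -3.52, -3.80, -3.73, -3.36 and -4.09 in coronal fractions 1 to 9 and 12, and lay between -3.48 and -3.47 in the others. The Hoxa7 probe was thus seen along most of the brain, and only fraction 1 stood clearly over the rest, whose values ran from -4.09 to -2.26. Hoxd8 was -3.49 in fraction 1 and on no other array well above background.

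To ask whether the caudal fractions differed beyond the spread among fractions, coronal fractions 1 to 3 were compared with fractions 4 to 12 by limma over 32118 probes, of which 1991 (6.2%) were called higher. The 32118 included 19 of the 38 Hox genes, those that were seen in every series and had no lost spot. 16 of the 19 were called, all higher caudally, by 2.10 to 6.28 log2. The differences were Hoxb5 (6.28 ± 1.23 (SE), adjusted p 0.0061), Hoxc4 (6.08), Hoxb4 (5.84), Hoxa3 (5.33), Hoxa5 (5.22), Hoxb6 (4.81), Hoxd4 (4.65), Hoxb2 (4.64), Hoxb3 (4.12), Hoxb7 (4.11), Hoxc5 (4.03), Hoxa2 (3.97), Hoxc6 (3.56), Hoxb8 (3.48), Hoxa4 (3.24) and Hoxa7 (2.10 ± 0.61 (SE), adjusted p 0.0414). They give no order, since fractions 4 to 12 were mostly not well above background. Of the 19, 5 (Hoxa5, Hoxb7, Hoxb8, Hoxc5 and Hoxd4) passed the coronal part of the filter only through fractions 1 to 3, where they are high, and all 5 were called, so the count of 16 is a description. Of the 14 seen in fractions 4 to 12, 11 were called. The lowest adjusted p was that of Hoxa3, 0.000353. The genes not called were Hoxa9 (0.29 ± 0.26 (SE), adjusted p 0.504), Hoxc12 (0.01, adjusted p 0.987) and Hoxb9 (-0.58, adjusted p 0.642). The median difference of the 19 was 4.11 log2, beside 0.00 over all probes tested. It was 1.74 with normexp background correction and 1.27 with the slide as a term or on slide B alone, and 3.06 without fraction 1 and 5.46 without fraction 3. With no filter the median over 36 members was also 1.74, beside -0.14 over all probes.

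For genes whose signal in fractions 4 to 12 was nowhere well above background, the fold is given as a lower bound, apart from the fitted difference. The reference on each array was the probe's level or the lowest signal well above background there, whichever was higher. Caudal signal was at least 8.70-fold higher for Hoxd4, at least 8.51-fold for Hoxa5, at least 6.20-fold for Hoxc5, at least 4.41-fold for Hoxb7 and at least 2.63-fold for Hoxb8. Among genes outside the test it was at least 2.83-fold for Hoxd3 and at least 1.51-fold for Hoxd1. The caudal means of Hoxa5, Hoxc5, Hoxb7, Hoxb8 and Hoxd1 took in fraction 3, where these genes were not well above background. Their bounds are thus approximate. 10 of the 19 had every one of fractions 1 to 3 above every one of fractions 4 to 12, as did 6.83% of all probes tested. The 10 include Hoxa5, Hoxb8 and Hoxd4, which passed the coronal filter only through fractions 1 to 3, so this count is a description. A smooth trend along the 12 coronal fractions was called for 17 of the 19 Hox genes, where 33.6% of all probes were called. The 17 were the 16 above and Hoxb9, which in the coronal series was seen in fraction 12 alone. As 5 of the 16 passed the coronal filter only through fractions 1 to 3 and Hoxb9 only through fraction 12, the count of 17 is a description.

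The slide divides the coronal series between fractions 2 and 3. With the slide as an added term, the caudal comparison rests on fraction 3 against fractions 4 to 10 of slide B alone, and 1 of the 19 was called (Hoxa3, where 2.15% of all probes were called higher). Within slide B taken alone limma called 0 of the 19, where 1.63% of all probes were called higher. There fraction 3 is the only caudal array, so these counts do not decide whether the Hox genes differed. The median difference of the 19 was 1.27 log2, beside -0.000677 over all probes. The coronal trend was called for 9 of the 19 on slide B, where 12.8% of all probes were, and for 0 with the slide term, where 0.744% were. With the slide term 12 of the 19, and 5345 of all 32118 probes, had an unadjusted p under 0.05 by limma. The median fitted change of the 19 along the series was then 5.66 log2, against 7.26 without the term. With no filter on dim probes the coronal trend was called for 28 of 36 members, where 31.1% of all probes were, and the caudal comparison for 15, where 2.31% were higher. Only 25 of the 38 genes were seen in the coronal series, so some of the 28 were seen in no coronal fraction. The count of 28 is therefore a description. Hoxb7 and Hoxc6, not well above background in fraction 3, had differences of -0.29 and -0.36 on slide B. Values within a slide were also set side by side. On slide A, coronal fractions 1 and 2 were set against horizontal fractions 1 to 3. Both of the former exceeded each of the latter for 15 of the 19 genes, beside 21.7% of all probes. The 15 include Hoxa5, Hoxb7, Hoxb8 and Hoxc5, which passed the coronal part of the filter only through fractions 1 and 2. The count of 15 is therefore a description. The median difference was 5.14 log2, beside -0.04 over all probes. It is no measured size, since most of these genes were not well above background in horizontal fractions 1 to 3. The fractions in this split also differ in mouse and plane, which cannot be told apart from position. On slide A within the horizontal series, 12 of the 19 were higher in each of fractions 4 to 6 than in each of fractions 1 to 3, beside 3.72% of all. Of the 12, all but Hoxa3, Hoxb2 and Hoxb6 passed the horizontal part of the filter only through fractions 4 to 6. This count too is a description. On slide B, 6 of the 19 (Hoxa2, Hoxa3, Hoxb2, Hoxb4, Hoxb5 and Hoxc4) were higher in each of fractions 3 to 5 than in each of fractions 6 to 10, beside 5.29%. These 3 splits were set after the values were seen. The calls of Hoxa7 and Hoxb7 were lost when any coronal fraction other than 3 was left out, and that of Hoxc6 when any other than 3 or 7 was. All 3 were also lost with normexp and with no filter. Leaving out coronal fraction 1 gave 10 caudal calls of 19, where 4.47% of all probes were called higher, and leaving out fraction 2 gave 9, where 2.15% were. With fractions 1 and 2 alone as the caudal group 11 of the 19 were called, where 0.0529% of all probes were called higher. The calls of Hoxa2, Hoxa3, Hoxa7, Hoxb2 and Hoxc4 were lost there.

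The step from coronal fraction 1 to fraction 2, both on slide A, is given by paralogue number. For the 5 genes of paralogues 2 and 3 the level in fraction 1 exceeded that in fraction 2 by 0.28 (Hoxd3) to 1.5 (Hoxb3) log2, with a median of 0.64. For the 7 genes of paralogues 4 and 5 the difference ran from -0.26 (Hoxd4) to 1.04 (Hoxa5), with a median of 0.94. For the 6 genes of paralogues 6 to 8 measured on both arrays it ran from 1.29 (Hoxa6) to 4.51 (Hoxb7), with a median of 2.94. The last group lay above all of paralogue 4 and 5. Hoxd1 (-0.76) and Hoxa9 (0.90, paralogue 9) were also measured on both arrays, and both lay below that group. In fold terms Hoxb7 was 22.7-fold higher in fraction 1 than in fraction 2, Hoxb8 12.1-fold, Hoxa7 9.13-fold, Hoxb6 6.49-fold and Hoxc6 6.09-fold. Hoxb4 was 1.26-fold and Hoxc4 1.26-fold higher. Over the 20 genes well above background in both fractions, Spearman's rho of this difference with paralogue number was 0.721. For fraction 1 minus fraction 3, rho was 0.0939 over the 14 genes measured in both, a set without those no longer seen in fraction 3 (Hoxa5, Hoxa6, Hoxb7, Hoxb8, Hoxc5, Hoxc6, Hoxd1 and Hoxd8). The points share the same pair of arrays, so rho is a description across genes and carries no p. Scaling of an array moves all 20 differences by the same amount and leaves their order as it is.

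**Figure D4:**
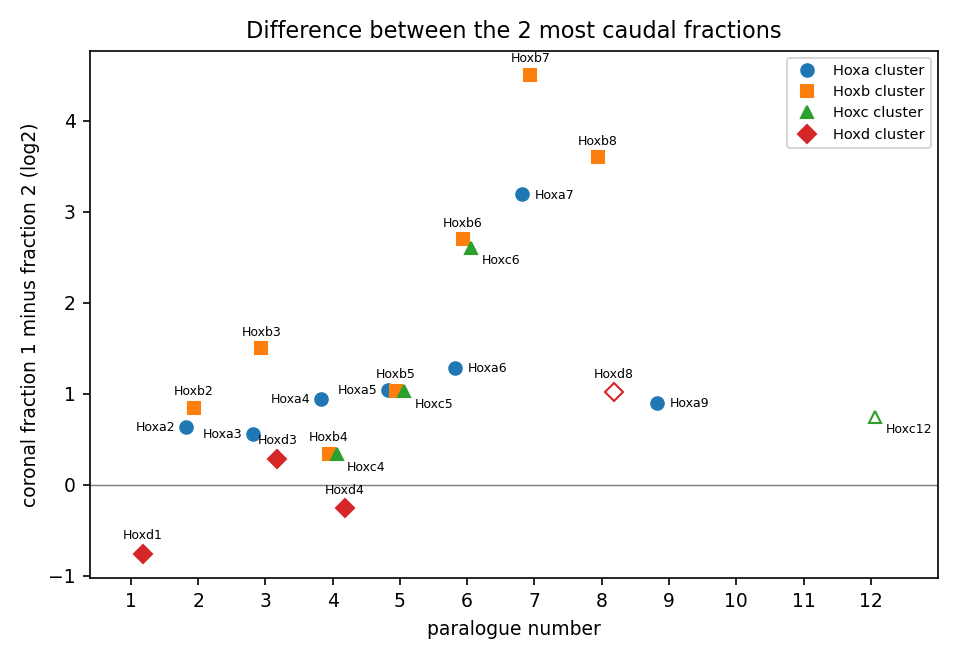
Level in coronal fraction 1 minus level in fraction 2 (log2, vertical axis) against paralogue number (horizontal axis) for the 22 Hox genes well above background in fraction 1, with symbols by cluster. Open symbols (Hoxd8 and Hoxc12) are lower bounds, because fraction 2 was not well above background. The 5 largest differences, 2.61 to 4.51, belong to paralogues 6 to 8.

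Between fractions 1 and 3 the differences were larger. In fraction 3 Hoxb7 was at least 130-fold lower than in fraction 1, Hoxa5 at least 63.3-fold, Hoxc6 at least 43.8-fold, Hoxb8 at least 30.4-fold and Hoxc5 at least 28.3-fold. Hoxb6, still measured in fraction 3, was 224-fold lower, Hoxb5 87.7-fold and Hoxb4 18.2-fold. Hoxb3 was 20.2-fold lower. Hoxa2, Hoxd3, Hoxa3 and Hoxb2 were 3.36, 4.37, 4.64 and 5.29-fold lower. Fractions 1 and 3 lie on slides A and B, and slide and position cannot be told apart in this step.

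The last coronal fraction of an unbroken run of detection from fraction 1 gives a forward limit of detection. It depends on the level of the probe as well as on the fall along the series. It was fraction 5 for Hoxb2, Hoxb4, Hoxb5 and Hoxc4, and fraction 4 for Hoxa2, Hoxa3, Hoxa4 and Hoxb3. It was fraction 3 for Hoxb6, Hoxd3 and Hoxd4, and fraction 2 for Hoxa5, Hoxa6, Hoxb7, Hoxb8, Hoxc5, Hoxc6 and Hoxd1. It was fraction 1 for Hoxd8 and Hoxc12. Hoxa7 and Hoxa9, seen along most of the brain, ran to fractions 9 and 7. The other 16 genes were not well above background in fraction 1. Spearman's rho of the limit with paralogue number was -0.693 over the 38 genes, and -0.313 over the 22 genes seen in fraction 1. Again the genes share their arrays, and no p is given. Within paralogue 5 the limits ranged from 2 (Hoxa5 and Hoxc5) to 5 (Hoxb5), so the number alone did not fix the limit of detection. In fraction 1 Hoxb5 stood at 3.82, and Hoxa5 and Hoxc5 at 1.37 and 0.36. The part of these starting levels in the limits was not tested.

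By cluster, 7 of 10 Hoxa genes, 8 of 10 Hoxb genes, 7 of 9 Hoxc genes and 5 of 9 Hoxd genes were well above background on at least 1 array. In coronal fraction 1 the numbers were 7, 7, 4 and 4. In coronal fraction 4 they were 5, 4, 1 and 0. Of the Hoxd cluster, Hoxd4 alone was seen in all 3 series, and no other Hoxd gene was seen in the horizontal series.

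Paralogues 9 to 13 were seen in 49 of 448 pairs of gene and array, and 21 of the 49 were Hoxa9 and 16 Hoxc12. Hoxa9 lay between -4.51 and -2.94 over the 12 coronal fractions, highest in fraction 1, and was seen in 9. Another Hoxa9 probe differed in its flag on 19 of the 28 arrays and was well above background on 2, so the first probe's signal is not borne out by the other. Hoxc12 was between -4.70 and -3.42 in the coronal series, with its highest value, -1.88, in sagittal fraction 1. That array had the lowest 75th percentile of all (135). Hoxb9, active in thoracic cord and mammary gland, was -2.50 in coronal fraction 12, -2.97, -3.28 and -1.30 in horizontal fractions 1, 5 and 6, and -1.14 in sagittal fraction 9. In coronal fraction 1, where most of the lower paralogues seen were highest, Hoxb9 was -6.18 and not well above background. Hoxc13, a hair follicle gene, was -3.06 and -2.32 in horizontal fractions 1 and 6 and -1.42 in sagittal fraction 9. Hoxc10 was seen in sagittal fractions 1 and 10 (-2.82 and -2.93), Hoxc11 in coronal fraction 6 (-3.66) and Hoxd11 in coronal fraction 7 (-2.21). Horizontal fractions 1 and 6 and sagittal fraction 9 are among the arrays with many rarely seen probes, and the part of those arrays in the Hoxb9 and Hoxc13 signal was not tested. Without these 3 arrays, 19 genes were seen in the horizontal series and 22 in the sagittal series.

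In the horizontal series Hox signal was ventral, with its highest value in fraction 5 for most genes. In fractions 1 to 6, Hoxb4 was -5.78, -6.77, -6.79, -2.23, -0.39 and -1.50, of which fractions 4 to 6 were well above background. Hoxc4 was -5.95, -6.94, -6.09, -1.43, 0.68 and -0.35, and Hoxb5 was -5.92, -5.53, -6.93, -0.77, 1.15 and -0.72, seen in the same 3 fractions. The 3 genes were higher in fraction 4 than in fraction 3, highest in fraction 5 and lower again in fraction 6. Hoxb6 was -4.47, -3.51, -4.15, -1.27, 0.78 and -2.0 and was seen from fraction 2 on. Hoxb7 was -5.52, -6.53, -6.55, -3.72, -1.18 and -5.50, seen in fractions 4 and 5. Hoxb8 was -5.75, -6.74, -5.69, -5.72, -2.48 and -5.55, seen in fraction 5 alone. All 3 had their maximum in fraction 5, as the genes before.

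The other genes of paralogues 2 to 6 are given by the fractions in which they were seen. Hoxa2 was -2.97 and -3.16 in horizontal fractions 5 and 6, and lay between -6.80 and -4.85 in the others. Hoxb2 was -3.41, -2.95, -1.50 and -2.02 in horizontal fractions 2 and 4 to 6, and lay between -5.74 and -5.66 in the others. Hoxa3 was -3.28, -3.06, -1.22 and -1.16 in horizontal fractions 1 and 4 to 6, and lay between -6.86 and -5.15 in the others. Hoxa3 was thus also seen at the dorsal end, and Hoxb2 in fraction 2. Hoxb3 was -3.22 and -1.86 in horizontal fractions 4 and 5, and lay between -6.51 and -3.24 in the others. Hoxa4 was -2.82 and -3.08 in horizontal fractions 5 and 6, and lay between -5.51 and -4.18 in the others. Hoxd4 was -1.71 and -2.13 in horizontal fractions 5 and 6, and lay between -6.10 and -3.86 in the others. The last 2 were not seen in fraction 4, where Hoxb3 was. Hoxa5 was -3.04, -1.14 and -3.27 in horizontal fractions 4 to 6, and lay between -6.96 and -5.97 in the others. Hoxc5 was -2.13 and -2.79 in horizontal fractions 5 and 6, and lay between -6.33 and -3.94 in the others. Hoxc6 was -4.28 and -1.99 in horizontal fractions 4 and 5, and lay between -6.64 and -4.19 in the others. Hoxa6, Hoxd1, Hoxd3 and Hoxd8 were on no horizontal array well above background, and Hoxa9 and Hoxc12 were seen in fractions 1 to 4.

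Genes differed in how far fraction 5 stood above the ventral fraction 6. Hoxa3 was -0.06 log2 in fraction 5 minus fraction 6, Hoxa2 was 0.19, Hoxa4 was 0.26 and Hoxb2 was 0.52 on the same difference. Hoxd4 was 0.42 and Hoxc5 was 0.66. Hoxb4, Hoxc4, Hoxb5, Hoxa5 and Hoxb6 had differences of 1.11, 1.03, 1.87, 2.14 and 2.77. Hoxb3 was at least 2.6-fold, Hoxb8 at least 2.12-fold, Hoxb7 at least 5.22-fold and Hoxc6 at least 2.98-fold higher in fraction 5 than in fraction 6. Hoxb9 and Hoxa7 went the other way, with fraction 5 lower than fraction 6 (-1.98 and -1.05). Hoxa7 was -0.86, -2.43, -2.77, -2.36, -1.04 and 0.01 in fractions 1 to 6, with higher values in the ventral fractions and at the dorsal end than in fractions 2 to 4. Over the 13 genes measured in both fractions, rho with paralogue number was 0.0701, given as a description. Against dorsal fraction 2, signal in fraction 5 was at least 55.4-fold higher for Hoxb5, at least 39.8-fold for Hoxc4, at least 19-fold for Hoxb4 and at least 11.3-fold for Hoxa5.

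A smooth horizontal trend was called by limma for 3 of the 19 Hox genes tested (Hoxa4, Hoxa7 and Hoxb9), where 15.8% of all probes were called, and 3 of 19 is the same share. The adjusted p-values were 0.0388 for Hoxa4, 0.0216 for Hoxa7 and 0.0306 for Hoxb9. The count moved with the setting. It was 0 without fraction 3 or without fraction 4, where 0% of all probes were called in both. There 9 and 9 of 19 had an unadjusted p under 0.05, as did 9955 and 7622 of all 32118 probes. The count was 10 with another background correction, where 27.8% of all probes were called. Scaling to the array median gave 9, where 59.6% were. With no filter it was 6 of 36, where 13.3% of all probes were called. The step from fraction 3 to fraction 4 described above is measured on 6 arrays of 1 slide and has no call of its own.

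**Figure D5:**
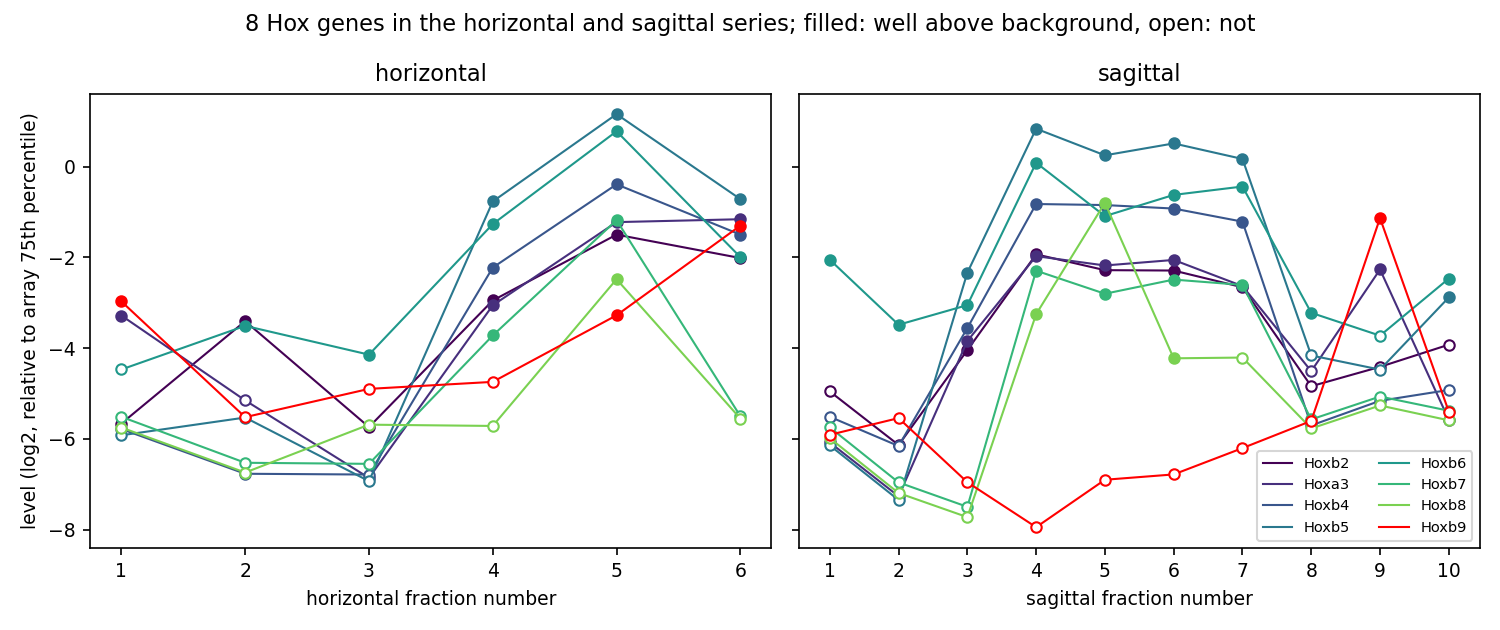
Level (log2, relative to the array's 75th percentile) of 8 Hox genes in the 6 horizontal fractions (1 dorsal) and the 10 sagittal fractions (5 and 6 midline). Filled points are well above background and open points are not. Hoxb2, Hoxa3, Hoxb4, Hoxb5 and Hoxb6 are filled in horizontal 4 to 6 and sagittal 4 to 7. Hoxb8 is filled in horizontal fraction 5 and sagittal 4 to 6, and Hoxb9 peaks in horizontal fraction 6 and sagittal fraction 9 instead.

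In the sagittal series Hox signal was medial. In sagittal fractions 1 to 10 Hoxb4 was -5.51, -6.16, -3.56, -0.83, -0.85, -0.93, -1.21, -5.71, -5.16 and -4.92. Fractions 3 to 7 were well above background, and fractions 4 to 7 lay between -1.21 and -0.83. Hoxb5 was -6.15, -7.35, -2.34, 0.83, 0.25, 0.51, 0.17, -4.16, -4.48 and -2.88, Hoxc4 was -6.17, -7.36, -2.68, 0.20, -0.06, 0.39, -0.53, -5.28, -3.87 and -2.88 and Hoxb7 was -5.75, -6.96, -7.50, -2.29, -2.80, -2.49, -2.61, -5.57, -5.07 and -5.38. Hoxb7 was seen in fractions 4 to 7, and Hoxb5 and Hoxc4 also in fractions 3 and 10. Hoxa5 was -6.15, -7.34, -4.35, -1.63, -2.51, -2.01, -1.63, -5.52, -5.33 and -5.66 and Hoxb2 was -4.96, -6.14, -4.05, -1.93, -2.28, -2.29, -2.66, -4.84, -4.41 and -3.93, both seen in fractions 3 to 7. All these genes formed a plateau over fractions 4 to 7. Hoxb8 did not, with -5.99, -7.20, -7.73, -3.25, -0.80, -4.23, -4.21, -5.77, -5.27 and -5.59 and was seen in fractions 4 to 6, its value in fraction 5 standing well above both neighbours.

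Most other genes had the same medial block. Hoxa2 was -5.12, -3.51, -3.67, -4.34 and -3.77 in sagittal fractions 3 to 7, and lay between -6.67 and -5.20 in the others. Hoxa3 was -3.84, -1.97, -2.18, -2.06, -2.63 and -2.27 in sagittal fractions 3 to 7 and 9, and lay between -7.27 and -4.51 in the others. Hoxb3 was -4.23, -2.58, -2.93, -2.82 and -2.76 in sagittal fractions 3 to 7, and lay between -5.32 and -4.40 in the others. Hoxa3 was thus also seen in lateral fraction 9. Hoxa4 was -4.39, -2.71, -2.65, -2.71 and -3.56 in sagittal fractions 3 to 7, and lay between -5.69 and -3.79 in the others. Hoxd4 was -5.0, -2.25, -1.43, -3.23, -2.76 and -2.07 in sagittal fractions 3 to 7 and 9, and lay between -6.99 and -5.17 in the others. Hoxc5 was -2.80, -3.52, -2.66 and -3.23 in sagittal fractions 4 to 7, and lay between -5.75 and -2.91 in the others. Hoxd4, like Hoxa3, had a value in fraction 9 within the range of its values in fractions 4 to 7. Hoxb6 was -2.05, -3.49, -3.05, 0.08, -1.09, -0.62, -0.44, -3.22 and -2.47 in sagittal fractions 1 to 8 and 10, and in fraction 9 it was -3.73. Hoxc6 was -3.78, -3.20, -3.31 and -3.92 in sagittal fractions 4 to 7, and lay between -7.39 and -5.08 in the others. Hoxd1 was -5.27, -4.74, -3.90 and -4.04 in sagittal fractions 3 to 6, and lay between -7.05 and -4.62 in the others. Hoxb6 was seen in all but fraction 9, with the 4 medial fractions highest. Hoxd3 was -4.65 and -4.24 in sagittal fractions 4 and 6, and lay between -6.94 and -4.62 in the others. Hoxa6 was -2.93, -4.77, -4.43 and -3.11 in sagittal fractions 1, 3, 4 and 10, and lay between -5.37 and -3.82 in the others. Hoxa7 was -1.82, -2.31, -3.55, -2.80, -3.03, -2.80, -3.09, -3.0, 0.48 and -2.90 in sagittal fractions 1 to 10. Hoxa6 and Hoxa7 were instead highest in the lateral fractions 1 and 9. Hoxa9 ran from -4.49 to -3.16 and Hoxc12 from -5.47 to -1.88 over the series.

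The plateau had unequal shoulders. In fraction 3, 16 Hox genes were well above background, and in its mirror position, fraction 8, 3 were. Paralogues 1 to 5 had 11 genes in fraction 3 and 0 in fraction 8. Fraction 4 exceeded fraction 3 by 1.62 (Hoxa2), 1.65 (Hoxb3), 1.68 (Hoxa4), 1.87 (Hoxa3) and 2.11 (Hoxb2) log2, and by 2.72 to 3.17 for Hoxa5, Hoxb4, Hoxd4, Hoxc4 and Hoxb5. For Hoxb6 the difference was 3.14, and Hoxb7 was at least 9.86-fold and Hoxb8 at least 5.07-fold lower in fraction 3 than in fraction 4. The difference was smaller for Hoxa7 (0.75), Hoxd1 (0.53), Hoxa6 (0.33) and Hoxa9 (0.07), and Hoxc12 went the other way (-0.44). Over the 16 genes measured in both, rho with paralogue number was -0.187, without those not seen in fraction 3. On the other side, fraction 7 was at least 14.5-fold above fraction 8 for Hoxb5, at least 8.94-fold for Hoxc4 and at least 1.09-fold for Hoxa4. Of the genes measured in both, Hoxb6 was 6.88-fold higher in fraction 7, and Hoxa7 and Hoxc12 were lower, at 0.94-fold and 0.47-fold. Fraction 3 lies on slide D and fraction 8 on slide C, and 59.8% of all probes were well above background in fraction 3 against 47.3% in fraction 8. Side of the brain, slide and sensitivity cannot be told apart here.

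Sagittal fractions 4 to 7 were compared by limma with fractions 1 to 3 and 8 to 10. Of the 19 Hox genes, of which 4 (Hoxb7, Hoxb8, Hoxc5 and Hoxc6) were seen in sagittal fractions 4 to 7 alone, 6 were called higher medially, where 0.134% of all probes (43 of 32118) were. These were Hoxb4 (4.22 ± 0.42 (SE), adjusted p 0.00931), Hoxa5 (3.78, adjusted p 0.0183), Hoxb7 (3.49, adjusted p 0.0191), Hoxb6 (2.48, adjusted p 0.0306), Hoxb2 (2.43, adjusted p 0.0496) and Hoxb3 (2.01, adjusted p 0.0172). Hoxb5 had a difference of 5.00 with an adjusted p of 0.0573, and Hoxc4 4.70 with 0.0688. Of the 15 tested members seen outside fractions 4 to 7, 5 were called, and of the other 4, 1 was. The count of 6 and the values over the 19 are therefore a description. The median difference of the 19 was 2.48 log2, beside -0.08 over all probes. With normexp background correction it was 0.31, beside -0.23, with 3 members called. With no filter the median over 36 members was -0.36, beside -0.49 over all probes. On slide C alone 1 was called, and with fractions 5 and 6 as the medial group 0 were. In the latter 5 of the 19, and 1828 of all 32118 probes, had an unadjusted p under 0.05 by limma. 12 of the 19 had every one of fractions 4 to 7 above every other fraction, beside 4.07% of all probes tested. The calls hung on single fractions, as did those of all probes. Limma called 0 of 19 without fraction 4 or without fraction 6, where 0% and 0.00623% of all probes were called higher. An unadjusted p under 0.05 was reached by 15 and 15 of the 19, and by 5600 and 4990 of all 32118 probes. The median difference of the 19 was then 2.31 and 2.47 log2. Limma called 1 without fraction 5 or without fraction 7, where 0.0125% and 0.056% of all probes were called higher, and 3 without fraction 10, where 0.0498% were. Without fraction 3 there were 14 calls, 13 of them higher medially and 1 lower (Hoxc12 by -1.92, adjusted p 0.0274), where 4.73% of all probes were called higher. Scaling to the array median gave 13 calls, where 0.417% of all probes were called higher, and the median of all probes was then 0.37. With the slide as an added term 5 of the 19 were called, where 0.0592% of all probes were called higher. On slide C, 12 of the 19 were higher in each of fractions 5 to 7 than in each of 8 to 10, beside 17% of all probes, and on slide D 9 were higher in both 3 and 4 than in 1 and 2, beside 27.3%. Both splits were set after the values were seen. The 12 include Hoxb7, Hoxb8 and Hoxc6, which passed the sagittal part of the filter only through fractions 4 to 7, so these counts are descriptions. Only Hoxb7 of the 6 was nowhere well above background outside fractions 4 to 7, and its medial signal was at least 2.92-fold higher. A smooth sagittal trend was called by limma for 2 of the 19 (Hoxb3 and Hoxc12, adjusted p 0.0328 and 0.00977), where 14.8% of all probes were called. It was called for 1 with the slide term, where 7.82% were, and for 0 without fraction 1, where 0% were. Without fraction 1, 15 of the 19 and 5910 of all 32118 probes had an unadjusted p under 0.05. With no filter the sagittal trend was called for 19 of 36 members, where 34.5% of all probes were, and the medial comparison for 1, where 0.00362% were. The 36 include genes seen in no sagittal fraction, so the count of 19 is a description.

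Genes that act with or on Hox genes were counted from lists. Of 9 cofactors of the TALE homeodomain class (Meis, Pbx and Pknox genes among them), all were well above background on every array. In the caudal comparison 1 was called higher, Meis1 by 1.87 ± 0.53 (SE) with adjusted p 0.0381, and 1 lower, Pknox2 by -0.86 with adjusted p 0.0137. Of 15 upstream regulators (retinoic acid enzymes and receptors and segment genes), 9 were tested and 2 were higher, the retinoic acid degrading enzyme Cyp26b1 by 1.23 (adjusted p 0.0177) and the receptor Rara by 0.62 (adjusted p 0.0272). Lower were 2, among them Egr2 by -4.85 (adjusted p 0.000116), which is also an activity gene of forebrain neurons. Of 10 chromatin regulators tested, 1 was higher, the histone demethylase gene Kdm6a by 0.59 (adjusted p 0.0359), and none lower. With the slide term limma called none of the 10, with 5 at an unadjusted p under 0.05. The medians of these lists were -0.41, -0.05 and 0.19 log2, beside the 4.11 of the Hox genes.

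Genes that lie next to the Hox clusters were mostly unlike them. Of 9 neighbours tested, 1 was called higher caudally, Skap2 by 1.17 ± 0.27 (SE) with adjusted p 0.0134, and the median of the 9 was -0.09. Evx1, a homeobox gene at the end of the Hoxa cluster that marks commissural interneurons, was -0.90, -1.58, -2.68, -1.25 and -3.61 in coronal fractions 1 to 5 and not well above background in fractions 6 to 12. Its caudal difference was 3.24 with an adjusted p of 0.0521. Of 16 noncoding genes of the clusters, 2 had a named probe and 1 of them was tested and not called. Of 5 rostral patterning genes tested, 4 were lower caudally, among them Emx1 by -6.08, Emx2 by -4.39 and Otx1 by -1.40. Otx2 had a difference of 1.98 ± 0.68 (SE) with adjusted p 0.0799.

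Markers of hindbrain and spinal neurons were higher caudally in part, and their part in the Hox result was not tested. Of 8 tested, 4 were higher caudally and none lower, among them Phox2a (3.95, adjusted p 0.0156), Glra1 (3.59, adjusted p 0.0161) and Lbx1 (1.95, adjusted p 0.00317). With the slide as an added term limma called none of the 8, with 2 at an unadjusted p under 0.05. With the same term 4 of the 8 cerebellum, 4 of the 5 rostral patterning and 4 of the 6 cortex markers were called. Phox2a, a factor of visceral motor and noradrenergic neurons, was also called higher medially, by 3.25 (adjusted p 0.0362). The summed signal of the list, as a multiple of the 75th percentile, was 4.02 to 5.45 in coronal fractions 1 to 3 and 0.348 to 12.4 in the others, with the top in fraction 4. The 8 cerebellum markers were tested and 7 were higher caudally, among them Gabra6 (8.54), Pcp2 (6.90), Cbln3 (6.45) and Neurod1 (5.02). These differences give no order, since only 5 to 7 of the 8 were well above background in each of fractions 5 to 12. The summed signal of the 8 was 560 to 772 in fractions 1 to 3 and 16.7 to 203 in the others. The cerebellum sum was highest in fraction 2, and the part of this list in the Hox result was not tested. Of 6 cortex markers 4 were lower caudally, among them Fezf2 (-6.41), Tbr1 (-5.40) and Cux2 (-0.55). Of the 19 markers tested for muscle, meninges, blood, pituitary and testis, none was called higher caudally and 1 (Acta1, -1.38) lower. The summed signal of the meninges list was 32.8 to 59.2 in coronal fractions 1 to 3 and 22.7 to 93.1 in the others. None of the 6 hypothalamus and 5 olfactory bulb markers was called in the caudal comparison, and medially Hcrt was called (4.96, adjusted p 0.0172). The median medial difference was 4.79 for the hypothalamus list and 2.85 for the hindbrain and spinal list. The summed signal of the hypothalamus list was 34.3 to 67.1 in sagittal fractions 4 to 7 and 2.35 to 15.3 in the others, and that of the hindbrain and spinal list was 1.44 to 6.04 and 0.41 to 1.01. The part of these lists in the medial Hox result was not tested.

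The named genes most like the Hox pattern were sought with the mean profile of the 21 Hox genes seen in at least 2 coronal fractions, each taken relative to its own mean. Pearson's r over the 28 fractions was 0.938 for Pax8, 0.872 for Nmu, 0.863 for Glra1, 0.853 for Phox2a, 0.848 for Esyt1, 0.822 for Skap2, 0.822 for Evx1 and 0.809 for Lingo4, which are 8 of the 10 highest. Pax8 is a paired-box factor of hindbrain and cord interneurons, Nmu encodes the peptide neuromedin U and Glra1 the glycine receptor alpha subunit. Pax8 had r of 0.946 in the coronal, 0.94 in the horizontal and 0.975 in the sagittal series. Nmu and Skap2 were less alike in the sagittal series, with r of 0.654 and 0.52. Pax8, Nmu, Glra1, Phox2a and Evx1 were well above background on 9, 8, 14, 11 and 12 of the 28 arrays, and Esyt1, Skap2 and Lingo4 on all 28. For the first 5 much of r thus rests on values not well above background, as does the Hox profile outside its high fractions. The fractions of a brain share position and depth, so these values describe likeness of profile only and have no p.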

How the data were processed

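RNA of 28 brain fractions was hybridised to 1-colour Agilent arrays after linear amplification with Cy3 from 0.5 ug. Per the file headers, Feature Extraction 10.5.1.1 gave for each of 62976 spots a background-subtracted processed intensity, median foreground and background intensities, and flags. The authors also deposited log2 values for 44721 probes, which equalled log2 of the processed intensity less the array's 75th percentile to within 2.3e-06 after a constant offset per array of 0.00111 to 0.00758 (44258 probes with a single spot in both). That table served as an alternative.

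Control and outlier spots (108 to 176 outliers per array) were left out, spots of a probe averaged, and log2 intensity centred on the array's 75th percentile over 55681 probes. That percentile was 135 to 574, the median SD between repeat spots was 0.056 to 0.086, and the number of arrays limits the precision. Names came from the probes' accessions through RefSeq's gene table (27235 probes, 48.9%). Probes that passed the flag on 1 or more arrays in all 3 series, with no spot lost, were tested with limma 3.58.1 in R 4.3.3. The tests were natural splines with 3, 2 and 3 degrees of freedom along the coronal, horizontal and sagittal fractions, and contrasts of coronal 1 to 3 and sagittal 4 to 7 with the rest of their series. Adjustment was by Benjamini-Hochberg over 32118 probes, with calls at 0.05. The fit was also run on simulated data, and no result of that run is used here.

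The 38 members, the gene lists and the tests were chosen with earlier results of these data known. All members were named by class, with the 10 genes most alike in profile, of which 2 are not reported here. Alternatives changed scaling, background correction, filter, flag, degrees of freedom, the slide term and single fractions. The last coronal array pools 2 labelled fractions, and positions are fraction numbers because sources differ on section thickness.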

Additional observations from a re-analysis of the deposited data

Results flagged for a closer look

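For each Hox gene seen in the horizontal or the sagittal series, the highest and the lowest fraction were set against the range of that series by Dixon's ratio, the gap to the next value divided by the whole range. The coronal series is too long for this ratio and was left out. Of 44 sets of values 4 held a fraction beyond the 95% critical value, where chance alone gives about 2.2. Fractions are positions along an axis and not replicates, so a single high fraction can be part of the profile. For Hoxb8, Hoxb9 and Hoxc13 below, every other fraction of the series was not well above background, so the ratio depends on values that have no order.

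Hoxb8, -2.48 in horizontal fraction 5 and next highest -5.55, had a ratio of 0.721, against a critical value of 0.625 for 6 fractions. The other 3 stood in sagittal fraction 9, where the critical value for 10 fractions is 0.466. There Hoxc13 was -1.42 with the next value at -5.49 (ratio 0.635), Hoxb9 was -1.14 with the next at -5.40 (ratio 0.626), and Hoxa7 was 0.48 with the next at -1.82 (ratio 0.572). Of the 2095 rarely seen probes of that array, 609 were well above background there and on no other array. The part of this array in the 3 Hox values was not tested.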

How the results depend on the processing

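Counts of members called are given for the alternatives that moved them by over 1.5 times. The coronal trend, called for 17 of 19, gave 28 with no filter (36 members tested), 9 on slide B alone and 0 with the slide term, and 16 to 17 with each fraction left out in turn. In each series the 36 include genes that were seen in none of its fractions, so counts with no filter are descriptions. The caudal comparison, called for 16, gave 1 with the slide term and 0 on slide B alone, and 9 to 16 with fractions left out. There the differences of Hoxb7 (-0.29) and Hoxc6 (-0.36) turned negative in both of these settings, which rest on the same fractions. On slide B Hoxb7 was nowhere well above background and Hoxc6 in fraction 7 alone, so these signs give no direction. The horizontal trend, called for 3, gave 9 with the array median (59.6% of all probes), 10 with normexp background correction (27.8%) and 6 with no filter. With 1 degree of freedom fewer it gave 0 (0.00311%), with 9 members and 3664 of all 32118 probes at an unadjusted p under 0.05 by limma. With fractions left out it gave 0 to 5, the 5 without fraction 5, where 17.7% of all probes were called. The sagittal trend, called for 2, gave 1 with the array median (0.999% of all probes), 1 with the mean of each gene's probes and 19 with no filter (34.5%). It gave 6 with 1 degree of freedom fewer (12.7%) and 1 with the slide term. On fractions 5 to 10 of slide C it gave 0 (0%), with 12 members and 2307 of all 32118 probes at an unadjusted p under 0.05 by limma. With fractions left out it gave 0 to 7, the 7 without fraction 10, where 47.1% of all probes were called. The medial comparison, called for 6, gave 13 with the array median (0.417% of all probes called higher), 3 with normexp (0.128%), 1 with no filter (0.00362%) and 1 on slide C alone (0.00623%). With fractions 5 and 6 as the medial group it gave 0 (0%), with 5 members and 1828 of all 32118 probes at an unadjusted p under 0.05 by limma. With fractions left out it gave 0 to 14, the 14 without fraction 3, where 12.1% of all probes were called in either direction. The array median moved the median medial difference of all probes from -0.08 to 0.37 log2 and that of the 19 members from 2.48 to 2.94, and normexp moved them to -0.23 and 0.31. Among single genes called caudally, alternatives other than leaving out a fraction kept direction and call in 101 cases, lost the call in 39 and turned the direction in 4, all named above. For those called medially the call was kept in 29 cases and lost in 25. With the flag for positive and significant signal in place of the one for signal well above background, 34 members were seen in the horizontal series instead of 20, and Spearman's rho between rostral limit and paralogue number was -0.517 instead of -0.693. The causes were not tested. No paired analysis was possible because the fraction numbers shared by the series are positions along different axes of different mice. Each comparison tested by limma lies within 1 series, whereas the untested split of coronal against horizontal fractions on slide A does not.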
